A study of Mus musculus with 2 samples.

Results

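The CC chemokine genes Ccl2, Ccl7, Ccl8 and Ccl12, the receptor gene Ccr2 and the CXC chemokine gene Cxcl2 were followed through the leukocytes of mouse pancreatic islets, cell type by cell type and cell by cell. The 6 genes were taken by symbol from the 32285 genes of the deposited count matrices, and all 6 had UMIs (unique molecular identifiers, each standing for 1 captured RNA molecule) in both libraries. The cells came from 12-week-old females of the NOD strain, in which autoimmune diabetes arises spontaneously. One library was from WT NOD mice and the other from NOD.Cxcl16-/- mice, labelled as homozygous for loss of Cxcl16 (the allele is not described), with no treatment named for either. The pancreas was digested with collagenase, islets were picked by hand and dispersed without enzymes, and live CD45+CD31- cells (leukocytes without endothelial cells) were sorted for 10x Genomics 3' single-cell RNA sequencing. Each genotype has 1 library and the number of mice behind it is not stated, so no difference between the libraries could be tested, and cells are not replicates. Every interval below is at the 95% level and covers counting error only.

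The Cxcl16 transcript was present in both libraries: in macrophage-gated cells it stood at 932 CPM (UMIs per 1000000 UMIs of the same cells) in WT NOD and at 524 CPM in the other. That second library is therefore called the library labelled NOD.Cxcl16-/- throughout, and no direction is tied to the genotype. The libraries held 13859 and 10554 barcodes with medians of 3808 and 5054 UMIs, and they shared 45 barcode sequences. After filtering, 10715 and 9323 cells were kept.

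Chemokines of the monocyte chemoattractant family are small secreted proteins made largely by macrophages and stromal cells after inflammatory stimulation. CCL2, CCL7 and the mouse protein CCL12 bind CCR2, the receptor that brings Ly6C-high monocytes out of the bone marrow and into inflamed tissue. Mouse CCL8 acts mainly through CCR8, a receptor of type 2 helper and regulatory T cells, and CXCL2 acts through CXCR2 and attracts neutrophils. Islets hold resident macrophages in health, and in NOD mice these are joined by monocytes, dendritic cells and lymphocytes.

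The 4 CC ligand genes lie together on chromosome 11 of GRCm38, all on the plus strand, within 81.229 kb (82035571 to 82116799, GENCODE M21 annotation). Their order is Ccl2 (82035571 to 82037453), Ccl7 (82045712 to 82047525), Ccl12 (82101845 to 82103400) and Ccl8 (82115185 to 82116799), each with up to 3 exons. The eosinophil chemokine gene Ccl11 lies between Ccl7 and Ccl12. Ccl2 is overlapped on the minus strand by the annotated coding gene Gm17268, and whether strand was used in the counting is not given in the sources used here, so Ccl2 UMIs are uncertain to that extent. Ccr2 lies on chromosome 9 (124101950 to 124113557) and Cxcl2 on chromosome 5 (90903871 to 90905938), both on the plus strand.

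RefSeq promoter sequence of GRCm38.p6 was matched for 4 of the 6 genes, Ccl8, Ccl12, Ccr2 and Cxcl2. The 250 bases before the RefSeq start are printed for the 3 ligand genes among them, 5′ to 3′ on the plus strand, because the values on the spread of UMIs over macrophages, given below, turn on these ligands. Capitals mark matches to TATAAAA, a core promoter element, or to a kappa-B form, GGG followed by any 2 bases and then TTTCC. The windows are chr11:82114935-82115184, chr11:82101595-82101844 and chr5:90903649-90903898.
Ccl8: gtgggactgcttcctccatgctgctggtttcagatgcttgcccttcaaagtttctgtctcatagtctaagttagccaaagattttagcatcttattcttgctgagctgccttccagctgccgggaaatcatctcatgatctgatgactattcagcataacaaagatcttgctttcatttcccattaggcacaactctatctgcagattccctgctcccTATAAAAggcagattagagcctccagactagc
Ccl12: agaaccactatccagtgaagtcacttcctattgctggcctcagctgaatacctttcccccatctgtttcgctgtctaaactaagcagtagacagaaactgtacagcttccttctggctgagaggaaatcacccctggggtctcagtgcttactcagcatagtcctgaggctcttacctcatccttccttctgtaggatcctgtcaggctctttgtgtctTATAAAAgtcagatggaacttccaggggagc
Cxcl2: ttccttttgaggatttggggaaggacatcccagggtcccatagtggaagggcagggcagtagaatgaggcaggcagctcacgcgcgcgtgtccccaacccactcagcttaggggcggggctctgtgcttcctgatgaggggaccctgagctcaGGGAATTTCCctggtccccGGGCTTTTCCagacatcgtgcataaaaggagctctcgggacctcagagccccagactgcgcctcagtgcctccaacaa

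TATAAAA began 32 bases before the start of Ccl8 and 31 bases before that of Ccl12. On either strand, the same 7 letters occur in 4.98% of the 32851 promoter windows of that length in the table. The Cxcl2 window held 2 kappa-B forms, GGGAATTTCC at 97 bases and GGGCTTTTCC at 78 bases before the start, and this form occurs in 1.41% of windows. An interferon-response form (GAAA repeated after a gap of 2 free bases, in 2.98% of windows) and the AP-1 form TGANTCA (in 6.75%) did not occur in any of the 4 windows, and the Ccr2 window held none of the 4 forms. Both strands were searched, the forms do not overlap in these windows, and a match is a description of letters, not of binding.

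Cells were placed in types by marker gates: a cell belonged to the class of which it had most markers, at least 3 of 6 detected, and none of the 6 genes studied here was a marker. The macrophage gate (C1qa, C1qb, C1qc, Adgre1 and Ms4a7 among its markers) held 80 WT NOD cells and 211 cells of the library labelled NOD.Cxcl16-/-, with 740017 and 2421252 UMIs and medians of 9356.5 and 10271 UMIs per cell. The 6 markers summed to 12628 and 15169 CPM in those cells, against 11.3 and 19.5 CPM in B-gated cells. That contrast is set by the gating itself. The macrophage gates differed between the libraries, with medians of 39.5 and 131 marker UMIs per cell. Exactly 3 markers were detected in 22 of the 80 and 38 of the 211 cells. Further barcodes, 96 and 334, had at least 3 macrophage markers together with at least 3 markers of a lymphocyte class. They are called mixed, were kept apart, and had median depths of 3204 and 12498.5 UMIs. The classical monocyte gate held only 7 and 11 cells.

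The 4 CC ligand genes had most of their UMIs in barcodes with macrophage markers. In the WT NOD library, cells of the macrophage gate or mixed barcodes with macrophage markers, 176 of 10715 cells in all, held 68.2% of Ccl2, 94.7% of Ccl7, 95.8% of Ccl8 and 83.0% of Ccl12 UMIs. In the library labelled NOD.Cxcl16-/- the same 2 sets, 545 of 9323 cells, held 82.4%, 94.3%, 97.5% and 96.6%. Cxcl2 was shared more widely among myeloid cells, with 52.3% and 80.3% of its UMIs in those sets. Of Ccr2 UMIs 6.11% and 16.1% lay there, whereas the numerous T, NK and ILC2 gates held 69.9% and 56.0%. Barcodes with macrophage markers thus held most of the CC ligand UMIs and a smaller part of the receptor UMIs, a share that also follows the number of cells in each gate.

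**Figure D1:**
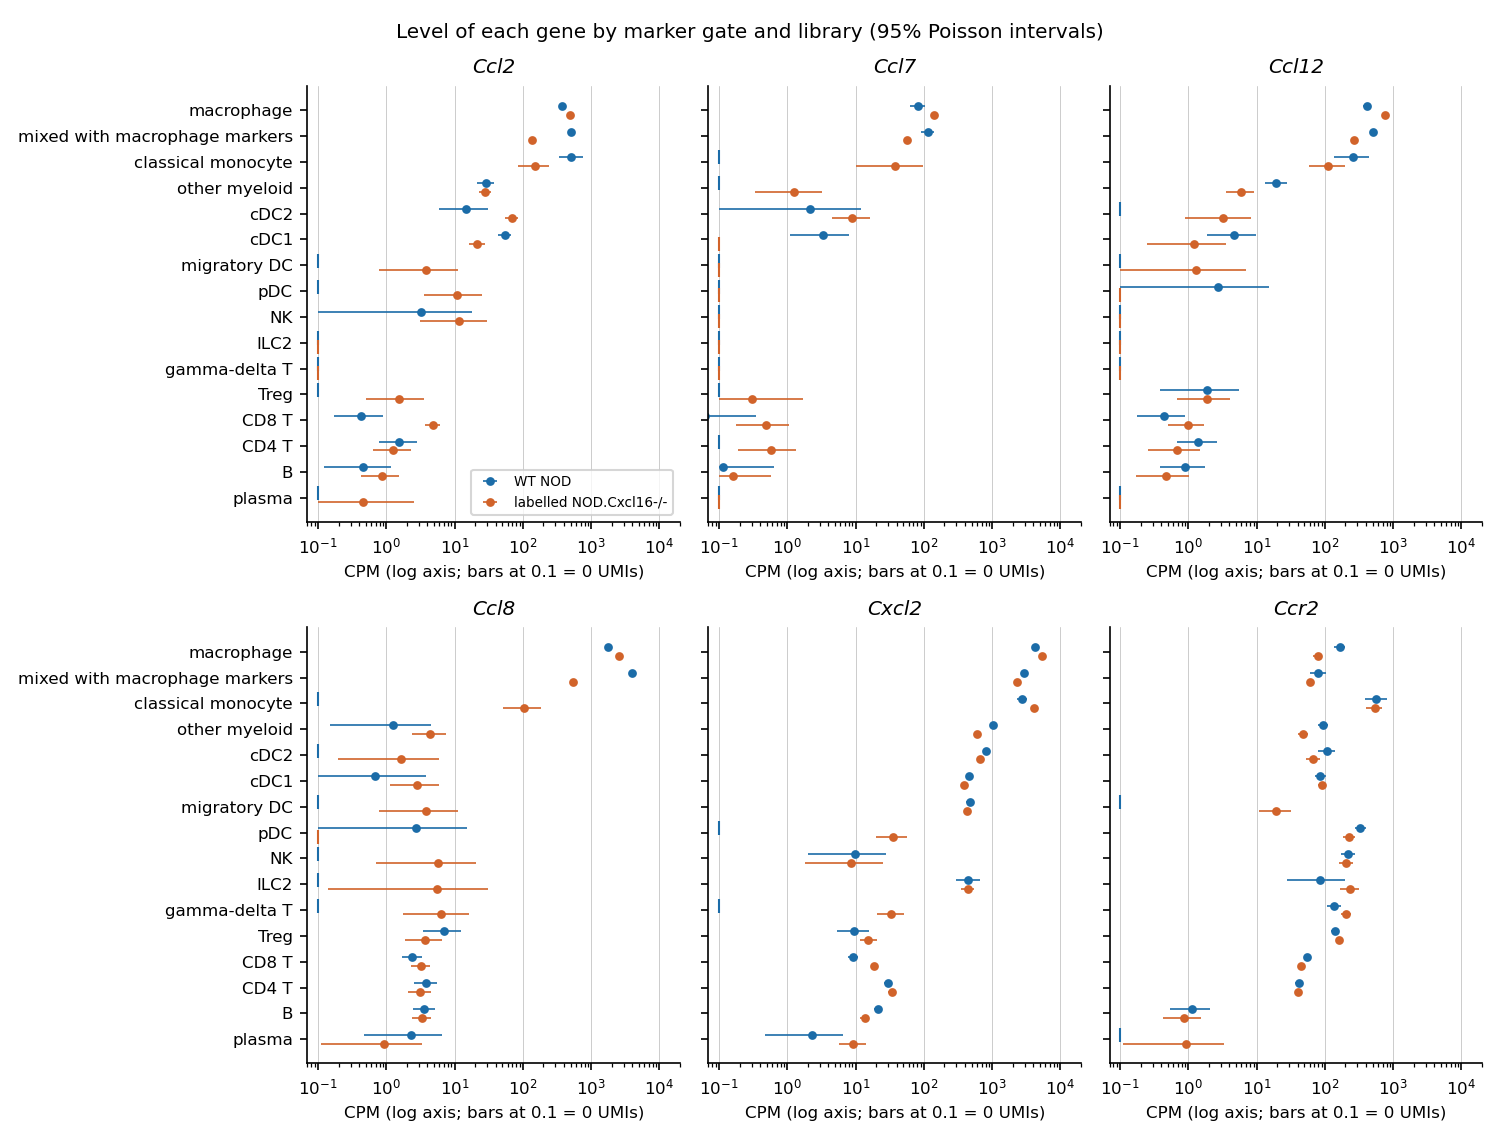
CPM of each gene (log axis) in 16 marker gates, with the WT NOD library in blue, the library labelled NOD.Cxcl16-/- in orange and exact Poisson 95% intervals. The CC ligands drop from between 81.1 and 2539 CPM in macrophage-gated cells to a few CPM in T and B lymphocytes, whereas Ccr2 is highest in classical monocytes and remains high in pDC, NK, ILC2, gamma-delta T and Treg gates.

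Ccl8, the ligand of CCR8, was high in macrophage-gated cells and at background in lymphocytes. Macrophage-gated cells had 1782 CPM (1687 to 1881) in WT NOD and 2539 CPM (2476 to 2603) in the other. B cells, which are not known to make it, had 3.60 and 3.31 CPM, and the CD4 T and CD8 T gates lay between 2.41 and 3.799 CPM in the 2 libraries. After each cell was thinned to 2000 UMIs, 29.5% (18.5 to 42.6) of 61 macrophage-gated cells and 28.0% (21.6 to 35.0) of 186 had a Ccl8 UMI. Of B-gated cells, whose median depths were 4473 and 4609.5 UMIs before thinning, 0.611% and 1.04% had one. The low lymphocyte values are read as background. Other myeloid cells (at least 4 of 6 shared myeloid markers and no class) were at that level too, with 1.25 and 4.39 CPM. Classical monocytes had 0 Ccl8 UMIs in WT NOD and 103 CPM in the other, where all 11 UMIs were in 1 cell.

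Ccl12 and Ccl7 followed the same outline at lower levels. Ccl12 stood at 411 CPM (366 to 460) and 767 CPM (733 to 803) in macrophage-gated cells, against 0.901 and 0.472 CPM in B cells. Ccl7 was the lowest of the ligands, at 81.1 CPM (61.9 to 104) from 60 UMIs and 142.9 CPM (128 to 159) from 346 UMIs, and at 0.113 and 0.157 CPM in B cells. Only classical monocytes came near for Ccl12, with 255 CPM (136 to 437) in 7 cells and 112 CPM (58.0 to 196) in 11. The macrophage interval of Ccl7 lay above those of the other gates plotted, mixed barcodes aside, in the library labelled NOD.Cxcl16-/-. In the WT NOD library ILC2 and classical monocytes were the exceptions, with 0 UMIs in 13 and 7 cells, and in the monocytes 3 UMIs would be 58.9 CPM.

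Ccl2, the main CCR2 ligand, reached further into other myeloid cells. It stood at 376 CPM (333 to 423) and 494 CPM (467 to 523) in macrophage-gated cells. Classical monocytes had 511 CPM (333 to 748), not separable from the macrophages of the WT NOD library, and 150 CPM (85.5 to 243), below those of the other. The latter value came from 16 UMIs in 3 of 11 cells. Thinned shares overlapped there, with 27.3% (6.02 to 61.0) of monocytes and 34.4% (27.6 to 41.7) of macrophage-gated cells positive. cDC1 (conventional dendritic cells of the cross-presenting type) had 54.8 CPM (43.5 to 68.1) and 21.5 CPM (16.1 to 28.1). cDC2 (the conventional type that presents chiefly to CD4 T cells) had 14.9 CPM (6.003 to 30.8) and 69.0 CPM (55.1 to 85.4), so the order of the dendritic gates was opposite in the libraries. Few cells stood behind these values: 1 cDC2-gated cell held 40 of the 85 Ccl2 UMIs in the library labelled NOD.Cxcl16-/-, and 1 cDC1-gated cell held 32 of 53.

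Cxcl2 was the most abundant of the 6 transcripts and the most widespread in myeloid cells. Macrophage-gated cells had 4223 CPM (4076 to 4374) and 5463 CPM (5371 to 5557), and classical monocytes followed with 2749 CPM (2313 to 3244) and 4039 CPM (3667 to 4438). Next came other myeloid cells (1046 and 604 CPM), cDC2 (806 and 657 CPM), migratory DC (467 and 426 CPM) and cDC1 (456 and 390 CPM). The migratory DC and cDC1 intervals overlapped in each library. Among lymphoid gates, ILC2 (group 2 innate lymphoid cells) had 446 CPM (291 to 653) and 438 CPM (348 to 546), beside 21.3 and 13.6 CPM in B cells. The ILC2 values came from 3 of 13 and 10 of 41 cells with a Cxcl2 UMI, and 19 of the 26 UMIs in the WT NOD library were in 1 cell. After thinning, 23.1% (5.04 to 53.8) and 22.0% (10.6 to 37.6) of ILC2-gated cells had a Cxcl2 UMI, against 0.978% and 1.34% of B cells.

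Ccr2 had its highest level in classical monocytes, the cells known to depend on it, with 569 CPM (381 to 818) and 533 CPM (404 to 690). Plasmacytoid dendritic cells came next with 330 CPM (274 to 394) and 228 CPM (187 to 276). In the WT NOD library the pDC interval overlapped those of classical monocytes above it and of NK cells below it. NK cells had 219 CPM (170 to 278) and 205 CPM (160 to 259). Gamma-delta T cells had 137 CPM (108 to 173) and 204 CPM (170 to 243), and ILC2 had 85.7 CPM (27.8 to 200.02) from 5 UMIs and 230 CPM (166 to 311). Treg-gated cells stood at 142 CPM (124 to 162) and 161 CPM (148 to 176). The pDC, NK, gamma-delta T and ILC2 intervals overlapped one another in the library labelled NOD.Cxcl16-/-.

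Macrophages held a middle place for Ccr2, at 166 CPM (138 to 198) and 78.5 CPM (67.7 to 90.5). Conventional T cells lay lower, with CD8 T cells at 55.3 and 44.9 CPM and CD4 T cells at 41.4 and 40.0 CPM. B cells had 1.13 and 0.866 CPM. After thinning, 20.5% (15.6 to 26.2) and 23.7% (19.6 to 28.2) of Treg-gated cells had a Ccr2 UMI, against 9.24% (8.01 to 10.6) and 9.59% (8.12 to 11.2) of CD8 T and 0.244% and 0.248% of B cells. Of thinned macrophage-gated cells 32.8% (21.3 to 46.0) and 10.8% (6.69 to 16.1) had one. The latter interval overlapped that of CD8 T cells. Macrophages were thus not separable from CD8 T cells by thinned shares in the library labelled NOD.Cxcl16-/-. Migratory DC had 0 UMIs in the WT NOD library, where 3 UMIs would be 4.89 CPM, and 19.1 CPM (10.7 to 31.5) in the other. Because T cells are numerous, CD8 T cells held 30.2% and 13.9% of all Ccr2 UMIs, and macrophage-gated cells 4.15% and 4.79%.

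Within the macrophage gate the ligand UMIs were held by few cells. For Ccl8, of 80 cells in the WT NOD library, 56 had none, the median of the other 24 was 16 UMIs, and the highest had 276. Of 211 cells in the library labelled NOD.Cxcl16-/-, 128 had none, the median of the 83 positive cells was 7, and the highest had 1337. In each library 4 macrophage-gated cells held 50% of the gate's Ccl8 UMIs. Over all kept cells, 6 cells in WT NOD and 9 in the other held 50% of all Ccl8 UMIs. The highest single barcodes had 751 UMIs (mixed) and 1337 UMIs (macrophage-gated).

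The concentration of Ccl8 was as large after thinning. Thinned to 2000 UMIs, the top 10% of macrophage-gated cells held 84.9% and 89.0% of Ccl8 UMIs. Among genes with at least as many thinned UMIs the median share was 24.6% and 22.3%, and 2 of 109 and 1 of 81 such genes had a higher share. By the Fano factor, the variance of thinned counts over their mean, Ccl8 was number 5 of 889 and number 6 of 2551 measured genes.

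Ccl2 had 50% of its macrophage UMIs in 4 and 16 cells, with 27 of 80 and 103 of 211 cells positive and 53 and 69 UMIs in the highest. Ccl12 had 50% in 5 and 15 cells, with 38 and 120 cells positive. Ccl7 was found in 5 and 31 cells, and 2 and 4 of them held 50%. Before thinning the top 10% of cells had 100% and 97.4% of Ccl7 UMIs, against 84.9% and 92.8% of Ccl8 UMIs. Thinned top-10% shares were 66.7% and 62.9% for Ccl2 and 63.2% and 65.4% for Ccl12, where genes with at least as many UMIs had medians of 31.3% and 29.2% for Ccl2 and of 31.3% and 25.8% for Ccl12. Ccl7 had 10 and 33 thinned UMIs, too few for such a share to be read.

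Cxcl2 was spread over most of the gate, with a UMI in 62 of 80 and 178 of 211 cells, medians of 23 and 30 UMIs over all cells, and highest values of 156 and 320. Its top 10% of cells held 29.2% and 38.0% after thinning, against medians of 23.4% and 24.2% over the 18 genes with as many UMIs in each library. Ccr2 was found at low counts: 35 and 62 cells were positive, the median positive cell had 2 UMIs in each library and the highest had 9 and 17. Over all kept cells, 309 and 301 cells were needed to reach 50% of Ccr2 UMIs, against 34 and 93 for Cxcl2.

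**Figure D2:**
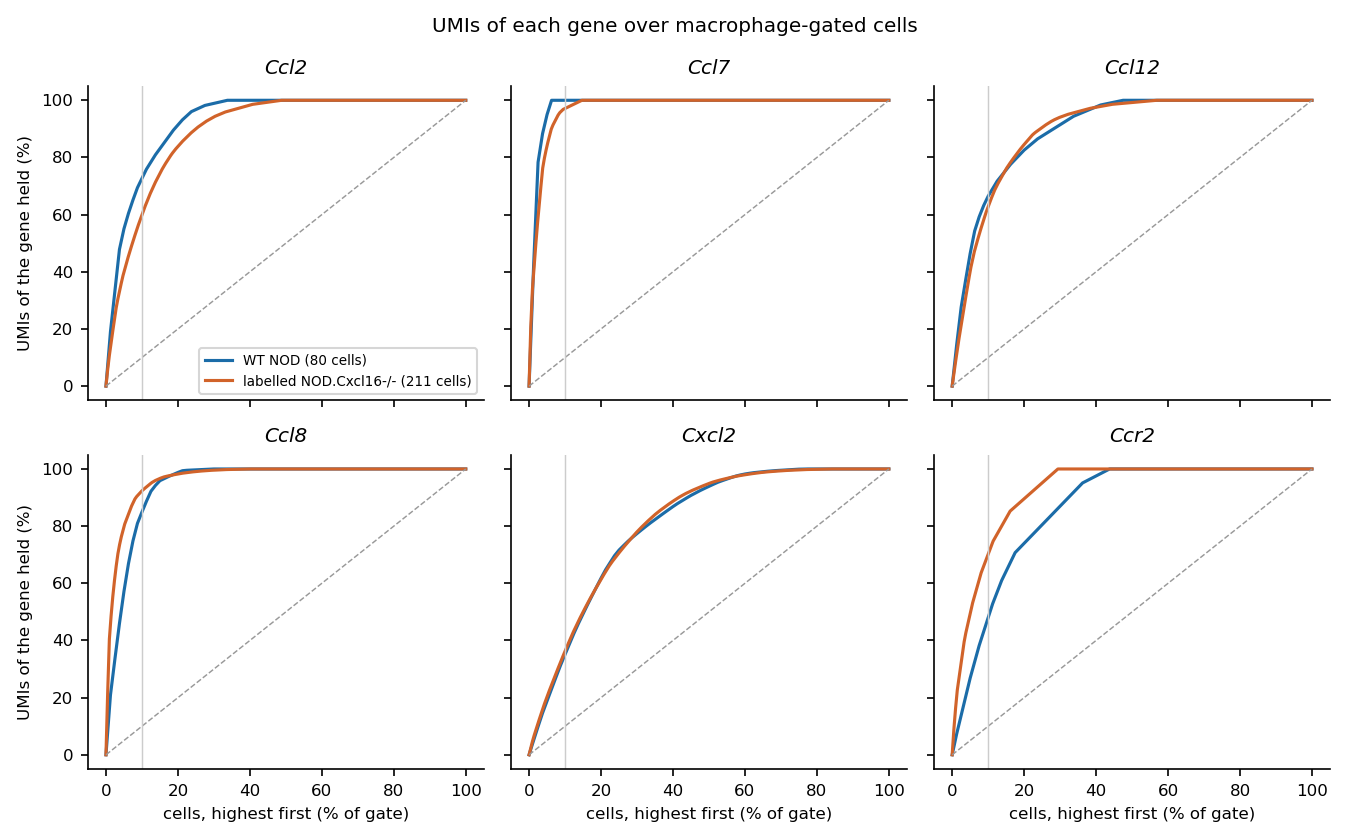
Cumulative share of each gene's UMIs (y axis, percent) over macrophage-gated cells ordered from the highest down (x axis, percent of the gate), WT NOD in blue and the library labelled NOD.Cxcl16-/- in orange, with the grey dashed line for an even spread and the vertical line at the top 10%. Ccl7 and Ccl8 rise steepest, and Cxcl2 lies nearest to the even line.

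The CC ligands were found in the same macrophages more often than the product of their shares gives. With cells thinned, Ccl2 and Ccl8 occurred together in 13 of 61 cells in the WT NOD library, where 5.90 would follow from their separate shares, and in 21 of 186 cells against 17.9 in the other. Ccl8 and Ccl12 were together in 10 cells against 7.08 and in 30 against 20.97. Ccl2 and Ccl12 were together in 11 against 7.87 and in 36 against 25.8. Ccl7 and Ccl8 were together in 3 against 1.48 and in 9 against 3.91. All 6 pairs of CC ligands lay above their expected number in each library. The share of other gene pairs above expectation in these cells was not computed, so the excess is not read as particular to these ligands. Cells of 1 library are not independent samples, and no test was made of these counts.

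No UMI of a CC ligand was detected in 26 of 61 thinned cells (42.6%) in WT NOD and in 68 of 186 (36.6%) in the other, and without thinning in 36 of 80 and in 53 of 211 (25.1%). At this depth a cell without a UMI may still hold the transcript. All 4 were found in 2 and 4 thinned cells. Of the thinned cells without a UMI of a CC ligand, 22 of 26 and 52 of 68 still had Cxcl2, beside 54 of 61 and 148 of 186 in the whole gate. The Cxcl2 pairs with CC ligands lay near their expected numbers, for example 17 cells with Cxcl2 and Ccl8 against 15.9 and 39 against 41.4. With Cxcl2 in most cells these pairs could hardly exceed their expected numbers. Whether Cxcl2 and the CC ligands share cells is therefore not read from them.

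Ccr2 and Ccl8 shared fewer macrophage-gated cells than expected from their separate shares. They occurred together in 1 thinned cell against 5.90 in WT NOD and in 4 against 5.59 in the library labelled NOD.Cxcl16-/-. Without thinning the numbers were 7 against 10.5 and 20 against 24.4. Over the alternatives run, observed over expected lay between 0 and 0.67 in WT NOD and between 0 and 1.15 in the other, so the 2 genes were short of shared cells under every setting in the WT NOD library and not under every setting in the other. In thinned WT NOD cells Ccr2 was also short with Ccl2 (5 against 6.56), Ccl7 (1 against 1.64) and Ccl12 (6 against 7.87). In the other library these were 8 against 6.88, 2 against 1.51 and 8 against 8.06. The shortfall in WT NOD is therefore not particular to Ccl8.

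**Figure D3:**
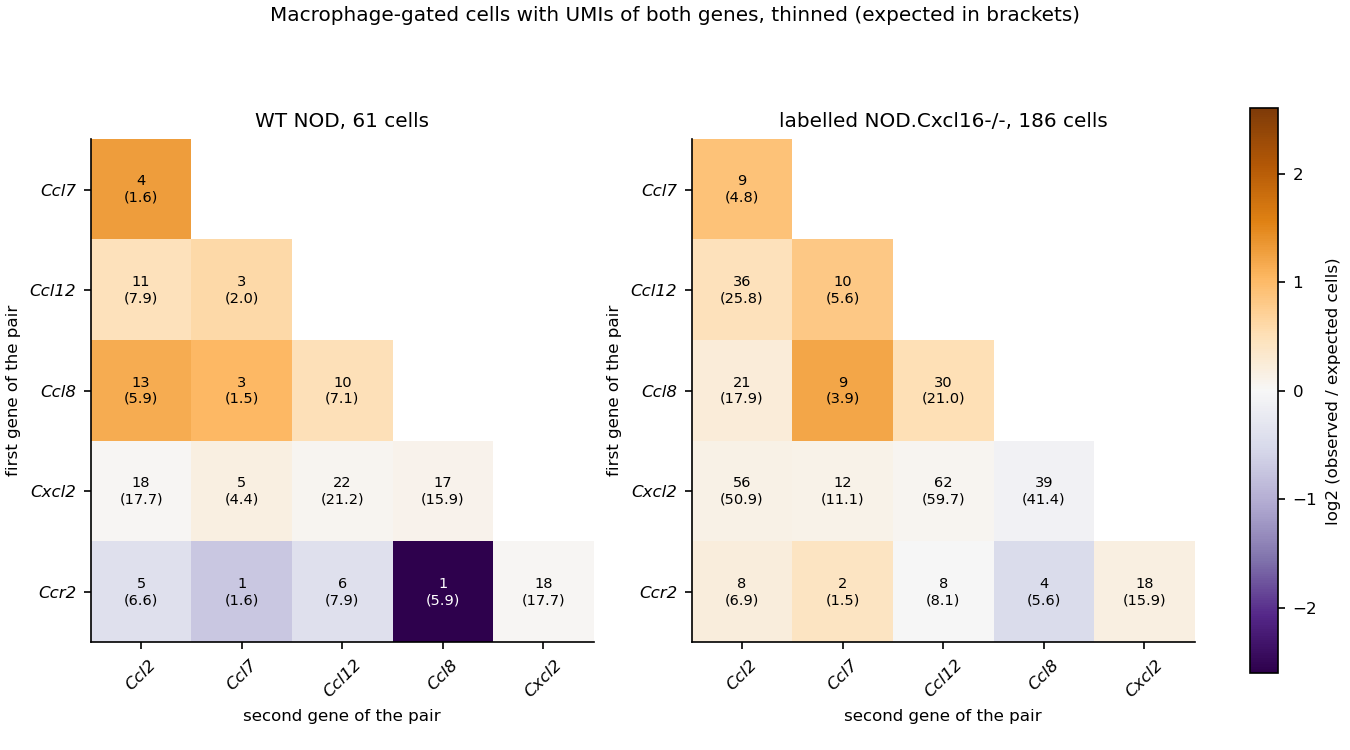
Number of thinned macrophage-gated cells with UMIs of both genes of a pair, with the number expected from their separate shares in brackets, for the WT NOD library (61 cells) and the library labelled NOD.Cxcl16-/- (186 cells). Colour gives log2 of observed over expected: pairs of CC ligands are orange in both libraries, and Ccr2 with Ccl8 is purple, with 1 cell against 5.9 and 4 against 5.6. Ccr2 with each other CC ligand is also below its expected number in the WT NOD library.

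Other genes were compared between cells with and without Ccl8. Ly6c2, the marker of classical monocytes, had 0 UMIs in the 18 and 52 thinned cells with Ccl8. With 3 counts taken as the limit of a count of 0, not an exact interval, up to 16.7% and 5.77% of cells could have a UMI. In cells without Ccl8, Ly6c2 was found in 25.6% of 43 and in 4.48% of 134, so a difference was not detectable at this depth in the library labelled NOD.Cxcl16-/-. Ccr2 was found in 5.56% and 7.69% of cells with Ccl8 and in 44.2% and 11.9% of those without. Lyz2, the lysozyme gene of myeloid cells, was higher with Ccl8, at 21056 against 6547 CPM in WT NOD and 10385 against 6101 CPM in the other. The gate marker C1qa was higher with Ccl8 too, at 9722 against 3035 CPM and 7885 against 5817 CPM. The cells with and without Ccl8 thus differed in a marker of the gate, and its part in the other contrasts was not tested. Il1b, which encodes interleukin-1 beta, was found in 38.9% against 86.0% and in 71.2% against 80.6% of cells. Shares of the fractalkine receptor gene Cx3cr1 were 27.8% against 34.9% and 36.5% against 35.1%, those of Tnf 61.1% against 55.8% and 51.9% against 56.0%, and those of Itgax, an integrin gene, 16.7% against 30.2% and 23.1% against 24.6%. These splits use Ccl8 itself to choose the cells and are a description.

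Over the thinned macrophage-gated cells, 61 and 186 of them, the genes whose counts followed each member most closely were ranked among 885 genes by the lower of the 2 libraries' Pearson correlations of log counts. All cells of a library share its preparation and background RNA. Ccl8 was most like Apoe, the apolipoprotein E gene (r = 0.71 and 0.41), followed by Cxcl13, the B-cell chemokine (0.42 and 0.36), Fabp5, Lyz2 and Timp2. Ccl12 followed the complement gene C1qc (0.39 and 0.31), Ccl4, Apoe, Ccl2 and Ccl8. Ccl2 followed Lyz2 (0.36 and 0.24), Ccl12, Socs3, Ccl4 and Ier3. Cxcl2 also followed Ccl4 (0.40 and 0.46), and further Cxcl1, which encodes a CXCR2 ligand (0.39 and 0.41), Tnf, Ccl3 and Sgk1. Ccr2 followed Plac8 (0.51 and 0.25), Ms4a4c, Ly6e, Ifitm3 and Ly6a, of which Plac8, Ms4a4c and Ifitm3 are known from Ly6C-high monocytes. Ccl7 had too few thinned UMIs to be ranked. Weak coefficients in counts this sparse are no finding by themselves.

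Between the libraries, the CC ligands and Cxcl2 were higher and Ccr2 lower in macrophage-gated cells of the library labelled NOD.Cxcl16-/-, with the direction of the ligands depending on how mixed barcodes are treated. Log2 ratios of CPM, with 1 CPM added, were 0.90 for Ccl12 (0.73 to 1.08), 0.81 for Ccl7 (0.42 to 1.24), 0.51 for Ccl8 (0.42 to 0.60), 0.40 for Ccl2 (0.21 to 0.59) and 0.37 for Cxcl2 (0.32 to 0.43). That of Ccr2 was -1.07 (-1.42 to -0.74). In the library labelled NOD.Cxcl16-/-, the highest 2 macrophage-gated cells held 1337 and 1152 of the gate's 6147 Ccl8 UMIs. The counting interval of the Ccl8 ratio does not cover that spread between cells. Past 1.5-fold were Ccl7 and Ccl12 in the higher direction, where 13.7% of 7753 measured genes (at least 20 UMIs in 1 library) also lay, and Ccr2 in the lower, with 7.56% of genes. The macrophage gate of the library labelled NOD.Cxcl16-/- held 2421252 UMIs against 740017, and the balance of directions depends on the minimum: 1062 genes were higher and 586 lower, against 157 and 347 where at least 20 UMIs were required in both libraries. The 6 genes had a median of 0.45, beside 0.02 over all measured genes.

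The mixed barcodes turned the ligand directions. In them Ccl8 stood at 3915 CPM in WT NOD and 543 CPM in the other, Ccl2 at 511 and 136 CPM, Ccl12 at 513 and 264 CPM and Ccl7 at 115 and 56.5 CPM. In the WT NOD library 7 mixed barcodes with B or plasma markers alone held 1098 of the 2860 Ccl8 UMIs of mixed barcodes. The part of doublets, and of the depth gap between the mixed barcodes of the libraries (medians of 3204 and 12498.5 UMIs), was not tested. Where the mixed barcodes were returned to the class of which they had most markers, the log2 ratios became -1.14 for Ccl8, -0.87 for Ccl2, -0.20 for Cxcl2, -0.18 for Ccl7 and -0.02 for Ccl12. Thinning to 2000 UMIs left 0.73 for Ccl12, 0.27 for Ccl8, 0.11 for Ccl7 and 0.10 for Ccl2. Thinned shares of positive cells lay close together: 32.8% and 34.4% for Ccl2, 29.5% and 28.0% for Ccl8, 39.3% and 40.3% for Ccl12 and 8.20% and 7.53% for Ccl7. No order of the libraries is therefore read for the ligands.

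Ccr2 was lower in macrophage-gated cells of the library labelled NOD.Cxcl16-/- under every alternative run, between -1.90 (thinned) and -0.84. In the mixed barcodes alone Ccr2 stood at 79.4 and 60.3 CPM. Their log2 ratio was -0.39, with an interval that includes equal levels (-0.79 to 0.02). Of thinned macrophage-gated cells 32.8% (21.3 to 46.0) and 10.8% (6.69 to 16.1) had a Ccr2 UMI. Summed, the markers of classical monocytes were lower too. All 6 were detected in WT NOD and 5 of 6 in the other, where Chil3 was at 0, and their summed level was 191 and 35.5 CPM. Ly6c2 alone stood at 153 and 28.9 CPM and was found in 17 of 80 and 19 of 211 cells. It held 113 of the 141 and 70 of the 86 UMIs of the 6 markers, so the sum mostly reflects 1 gene. In cells with a Ly6c2 UMI, Ccr2 was at 327 and 150 CPM, and in cells without one at 118 and 65.4 CPM. Leaving out the cells with a Ly6c2 UMI gave the log2 ratio of -0.84. Whether monocyte-like cells have a part in this difference was not tested. In the 7 and 11 classical monocytes Ccr2 had a log2 ratio of -0.10 (-0.76 to 0.60), and 0.71 after thinning.

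**Figure D4:**
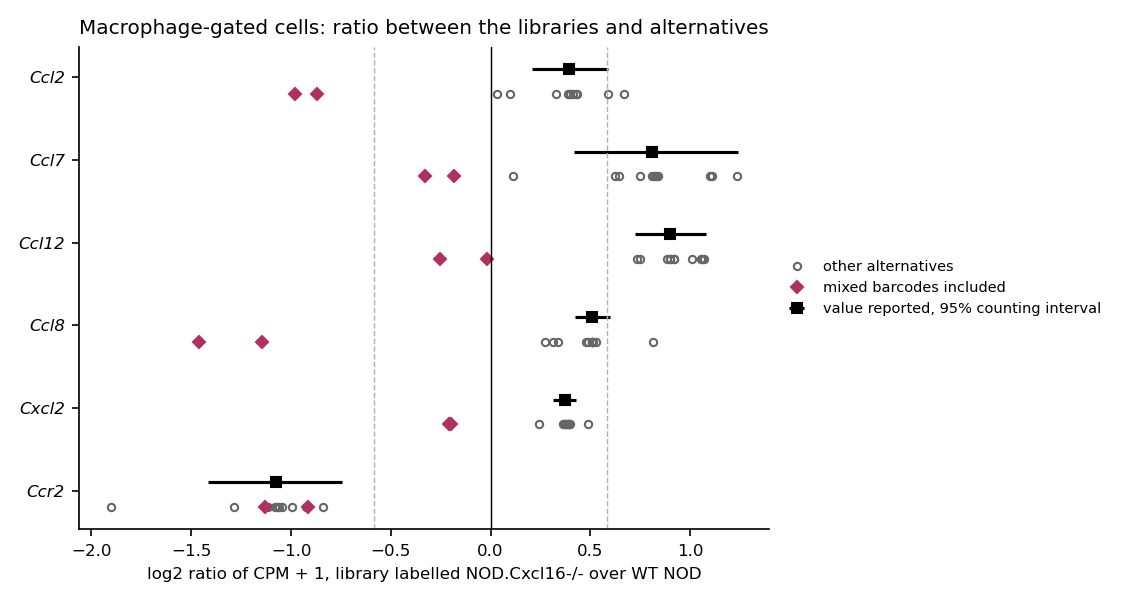
Log2 ratio of CPM between the libraries in macrophage-gated cells (x axis) for each gene: black squares are the reported values with 95% counting intervals, open circles the alternatives that leave mixed barcodes out, and red diamonds the 2 that include them. Dashed lines mark 1.5-fold. All ligand values move below 0 when mixed barcodes are included, whereas every Ccr2 value lies between -1.90 and -0.84.

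Other genes of these pathways, from lists, had ratios in both directions in macrophage-gated cells. Of a list of 6 genes, 5 of CXC chemokines and Cxcr2, 2 were measured. Cxcl1, which encodes a CXCR2 ligand, had a log2 ratio of 0.13 (404 and 442 CPM). Pf4, which encodes platelet factor 4 and is not counted among the CXCR2 ligands, had -0.72. Cxcr2 had 0 UMIs in the gate of each library. Of 9 further CC chemokines 6 were measured, with 3 past 1.5-fold higher, none lower and a median of 0.51, beside 13.7% higher and 7.56% lower over all measured genes. Whether these directions hold with mixed barcodes included was not tested. These 3 were Ccl3 (0.94), Ccl4 (0.96, at 3078 and 6005 CPM) and Ccl22 (1.79, from 3 and 40 UMIs). Ccl5 had 0.09 (1572 and 1671 CPM) and Ccl9 -0.47. Among chemokine receptors and decoys, Ccr1 had -0.64 and Cx3cr1 0.05. Ccr8, the receptor of CCL8, had 0 and 1 UMI.

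Of 14 early genes of the NF-kappa-B pathway, which drives inflammatory chemokine transcription, 2 were past 1.5-fold higher and 2 lower, with a median of -0.12. Over all measured genes 13.7% were higher and 7.56% lower, and counts of 2 are too small to be read against these shares. Il1a, encoding interleukin-1 alpha, had 1.12 and Ier3 had -0.95, while the most abundant, Nfkbia and Il1b, had 0.11 and -0.11. Of 11 early genes known to respond to tissue dissociation, 10 lay within 1.5-fold, where 21.3% of all measured genes lay outside it. This list had a median of -0.08, with Hspa1b highest at 0.69, Ier2 lowest at -0.23, and the most abundant, Junb and Fos, at -0.22 and -0.12. Of 10 genes of tissue-resident macrophages 5 were measured, with Mrc1 at 0.81, Timd4 at -1.43, Selenop at -0.48 and Maf at 0.04, and a median of -0.14. The Mrc1 value came from 10 and 59 UMIs, and its interval (-0.13 to 1.98) includes equal levels. That of Timd4 (-2.12 to -0.83) does not. Of 8 genes of monocyte recruitment and maturation 7 were measured, with 1 higher (Itga4, 0.62), 2 lower (Ly6c2, -2.36, and Spn, -1.17) and a median of -0.33, beside the same 13.7% and 7.56% over all genes. Csf1r, the receptor for the macrophage growth factor CSF1, had -0.33, and Itgb2, an integrin subunit, 0.01.

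RNA of other cells was also present in the gate. The 6 endocrine markers summed to 9907 and 10548 CPM, with medians of 0 and 6 UMIs per cell, and all 6 were detected. The immunoglobulin gene Igkc stood at 250 and 833 CPM. The 6 T-cell markers summed to 98.6 and 57.8 CPM, the 6 B-cell markers to 67.6 and 30.6 CPM and the 6 plasma-cell markers to 20.3 and 85.9 CPM. Barcodes with at least 3 markers of a lymphocyte class had been set apart as mixed, so these lymphocyte sums are limited by the gate. The 6 neutrophil markers summed to 29.7 and 21.5 CPM, and of these Cxcr2, S100a9, Retnlg and Mmp9 were at 0 in both libraries. The part of this RNA in the ligand differences was not tested.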

How the data were processed

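UMI counts, deposited as whole numbers with no scaling, are the values used, which the authors made with Cell Ranger 7.0.1 per the file headers and on the build mm10 per the submitters' processing notes. The annotation and the counting of intronic reads are not given in the sources used here. Barcodes with fewer than 500 genes (1582 and 311), with over 10% mitochondrial UMIs (53 and 84) or with the highest doublet scores (1537 and 891) were removed. The doublet score followed the Scrublet scheme with 2 simulations for each barcode, and 0.8% was removed for each 1000 barcodes, so their number was set and not estimated. This left 56307738 and 75915630 UMIs, at medians of 3867 and 4891 per cell.

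Cells were gated with 6 markers per class. A barcode with at least 3 markers in each of 2 lineages was called mixed. T cells were divided by Cd8a and Cd8b1, Cd4, Foxp3 and gamma-delta receptor genes (at least 2 of 4). UMIs were summed per gate and library and scaled to CPM. Levels carry exact Poisson intervals, shares exact Clopper-Pearson intervals, and log2 ratios (1 CPM added) the conditional binomial interval of the CPM ratio. A gene was measured with at least 20 UMIs in 1 library and called at 1.5-fold. Shares, concentration and co-detection used cells thinned to 2000 UMIs. Of the macrophage gate 19 and 25 cells were too shallow for that. The ratio step was tested on simulated counts. Named genes were the 6 members, the genes of each list with the highest and lowest log2 ratio and the 2 of highest CPM, and 5 genes per member by likeness. A marker and a value of a listed gene are not reported here. The members, markers and lists were chosen with earlier results of these data known. Python 3.11.15, numpy 2.4.6, scipy 1.17.1, pandas 2.3.3 and scikit-learn 1.9.0 were used.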

Additional observations from a re-analysis of the deposited data

Results flagged for a closer look

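The difference between the libraries had opposite signs in different gates for 4 genes, in gates of at least 50 cells per library and with counting intervals on 1 side of equal levels. Mixed, other T and ungated barcodes, and ratios with 0 UMIs in 1 library, were left out of this count. In the mixed barcodes with macrophage markers Ccl8 had a log2 ratio of -2.85 (-2.92 to -2.78) and Ccl7 -1.01 (-1.37 to -0.67). In macrophage-gated cells these were 0.51 and 0.81. With 1 library per group the difference between gates was not tested. Ccl12 had a log2 ratio (library labelled NOD.Cxcl16-/- over WT NOD) of 0.90 in macrophage-gated cells and -1.55 in other myeloid cells, where 23 of the 31 UMIs of the WT NOD library were in 1 cell. Ccl2 had 0.40 in macrophage-gated cells and 2.01 in CD8 T cells, where 1 cell held 52 of 59 UMIs in the library labelled NOD.Cxcl16-/-, and -1.31 in cDC1. Ccr2 had 0.57 in gamma-delta T cells, against -0.30 in CD8 T cells, -1.07 in macrophage-gated cells and -0.95 in other myeloid cells. Cxcl2 had 0.37 in macrophage-gated cells and 0.96 in CD8 T cells, against -0.61 in B cells, -0.23 in cDC1 and -0.79 in other myeloid cells. The levels of Cxcl2 in CD8 T and B cells lay between 9.22 and 21.3 CPM, far below those of myeloid gates. With mixed barcodes included the macrophage values of Ccl12, Ccl2 and Cxcl2 became -0.016, -0.87 and -0.20, so that they no longer had the opposite sign to the values given for other myeloid cells or cDC1, and that of Ccr2 became -1.13.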

How the results depend on the processing

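No paired analysis was possible because each group has 1 library and its replicate number comes from accession order. Keeping mixed barcodes in the macrophage gate turned the called log2 ratios of Ccl7 to -0.18 and of Ccl12 to -0.016, and moved Ccl2 to -0.87, Ccl8 to -1.14 and Cxcl2 to -0.20. Summing macrophage-gated cells with all mixed barcodes that had macrophage markers, chosen after seeing the data, gave -0.33 for Ccl7, -0.25 for Ccl12, -0.98 for Ccl2, -1.46 for Ccl8 and -0.21 for Cxcl2. Thinning gave 0.10 for Ccl2, 0.11 for Ccl7, 0.27 for Ccl8 and -1.90 for Ccr2, and 0.71 for Ccr2 in classical monocytes. Keeping the highest-scoring doublets gave 0.67 for Ccl2 and 0.81 for Ccl8. Requiring at least 4 markers gave 0.033 for Ccl2, 0.31 for Ccl8 and 0.25 for Cxcl2. The mean of each cell's CPM gave 0.49 for Cxcl2, and leaving out cells with a Ly6c2 UMI, also chosen after seeing the data, gave 0.34 for Ccl8. The cause was not tested. Other log2 ratios, 67 of them, moved by less than their counting interval. The counts of genes past 1.5-fold, 1062 higher and 586 lower, became 1714 and 980 with mixed barcodes, 3211 and 2526 with no filter, where genes with few UMIs enter, and 157 and 347 with at least 20 UMIs in both libraries, where fewer genes are tested. Of the 210 co-detection values under alternatives 160 were above 1, as were 23 of the 30 reported, with no share over other gene pairs computed. Depth limits Ccl7, with 60 and 346 macrophage UMIs, and the classical monocyte gate, with 7 and 11 cells.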

Other observations

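The genes whose counts followed Ccr2 in T cells were ranked as for the macrophages, over thinned cells that share a library, a comparison chosen after the Ccr2 levels had been seen. In CD4 T-gated cells (1168 and 1269) the genes most like Ccr2 were Rgs1 (r = 0.26 and 0.31), AW112010, Cxcr6, S100a6 and Lgals1. In Treg-gated cells (239 and 405) they were AW112010 (0.24 and 0.28), S100a6, S100a4, Cxcr6 and Maf. In CD8 T-gated cells (2024 and 1450) they were Ccl5 (0.18 and 0.25), Tmsb4x, Gzmk, AW112010 and S100a6.

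Cxcr6, the receptor of CXCL16, is among those of CD4 T and Treg cells. Splitting the same cells by Cxcr6 restates that likeness and adds no support to it. No split by another gene is given for scale. In thinned CD4 T cells with a Cxcr6 UMI, 19.4% of 237 in WT NOD and 21.2% of 217 in the other had a Ccr2 UMI, against 4.73% and 4.28% of those without. In CD8 T cells the shares were 15.7% and 18.0% with Cxcr6 and 6.72% and 6.07% without. In Treg cells they were 39.6% and 46.6% with it and 15.7% and 17.4% without. NK cells had few with Cxcr6, 7 and 5 thinned cells, and 29.3% and 29.0% of the NK cells without it had Ccr2.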
